A study of Mus musculus with 8 samples.

Results

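The transcripts of 10 core circadian clock genes were described in mouse lens capsule, in eyes with an injury model called ASC and in sham-operated eyes. The genes were Per1, Per2, Per3, Cry1, Cry2, Arntl (also named Bmal1), Clock, Nr1d1, Nr1d2 and Dbp, 10 of the 54532 genes in the count table. They were chosen by name from the known clock loop, with the ASC and sham levels of these libraries already known, so their values in ASC against sham are a description, carry no p-value here and support nothing further. All 10 had enough reads to be tested, with 210 to 2781 reads per gene and library.

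The study had 2 groups of 4 libraries, described as biological replicates. All mice were wild-type C57BL/6 aged 6 to 8 weeks, and capsules were taken 7 days after surgery. In the ASC group a needle was passed through the cornea to open the anterior lens capsule at its centre. In the sham group the cornea alone was cut and the capsule stayed closed. The labels give neither the number of capsules or mice per library nor the hour of surgery or collection, so the SDs below may hold technical as well as biological spread.

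The mammalian clock is a loop of transcription and delayed repression. The CLOCK and BMAL1 proteins form a dimer that binds E-box sequences and switches on the Period and Cryptochrome genes, whose proteins return to block that dimer. BMAL1 and CLOCK also drive Nr1d1 and Nr1d2, whose REV-ERB proteins repress Arntl through RRE sites, and Dbp, whose protein activates genes with D-box sites. Dbp, Per3 and Nr1d1 therefore peak far from the peak of Arntl in most tissues, and their ratio to Arntl moves with the hour of the day. Per1 has a further input: it is an early response gene that cAMP, calcium and stress signals switch on through CREB, and that glucocorticoids also induce.

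Library totals ran from 14420494 to 21141582 counts, and 1 read stood for 0.0467 to 0.0744 CPM (reads per 1e+06 reads of the TMM-scaled library total). The lens epithelial markers were present in every library, with a summed level of 1207 to 1396 CPM in sham and 1054 to 1275 CPM in ASC, and 1 of 6 lower in ASC. By the threshold used for single genes (edgeR adjusted p under 0.05), 0.631% of all tested genes were higher in ASC and 0.391% lower. Markers of other tissues were present too. Red cell genes summed to 40.1 to 62.8 CPM in sham and 73.9 to 370.1 CPM in ASC (5 of 5 markers tested, 0 past the threshold for single genes; exact permutation p = 0.0286, the smallest that 70 assignments allow, adjusted p = 0.133). Pigment cell genes summed to 25.6 to 196 CPM in sham and 115 to 578 CPM in ASC (exact permutation p = 0.0571, adjusted p = 0.133; 0 of 6 past the threshold). Lens fibre genes summed to 6516 to 20545 CPM in sham and 12923 to 57231 CPM in ASC, with 2 of 9 higher (exact permutation p = 0.0571, adjusted p = 0.133). The corneal sum was 388 to 604 CPM in sham and 352 to 953 CPM in ASC (exact permutation p = 0.571). It was mostly Aldh3a1, with a mean of 482.9 of 489.2 CPM in sham and 591.9 of 615.3 CPM in ASC. The test of the sum therefore says little about the other corneal markers. Of the 5 tested markers 3 were higher, Krt12, Krt5 and Krt6a, named after their values were seen. Their log2 fold changes were 3.19, 3.52 and 2.79 without overlap, beside 0.56 for Krt15 and 0.29 for Aldh3a1. Retinal genes summed to 932 to 3884 CPM in sham and 1822 to 3483 CPM in ASC, and leukocyte genes to 7.96 to 25.4 and 13.3 to 43.8 CPM, with 0 of 6 tested markers of either list past the threshold. No marker on these lists was at 0 in all libraries of a group. Fewer cells of a type and less RNA per cell cannot be told apart in bulk samples, and the part of these tissues in the clock gene values was not tested except where a value is given.

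Promoter sequence was looked at for sites of the loop, of CREB and of SRF. The reason was that Per1 and its partners in the loop did not change alike between sham and ASC. RefSeq start sites (GRCm38.p6) were matched for 9 of the 10 genes, in 13 windows of 250 bases before to 50 after the first base, with Per2 unmatched. Both strands were searched for the E-box CACGTG, the D-box as TTATGTAA or TTACGTAA, the RRE core as TAGGTCA or TGGGTCA, the CREB site TGACGTCA, its first 7 letters TGACGTC (which every full site also holds), and the CArG box of SRF. No site through which glucocorticoids act was searched for. The 5 stretches shown carry all matches that were found. Capitals mark the match, and positions count the first base of the gene as 0.
Per1, upstream start, E-box, chr11:69098748-69098823, plus strand: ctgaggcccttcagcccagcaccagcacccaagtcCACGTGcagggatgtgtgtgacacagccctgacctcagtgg
Per1, downstream start, 7 letters of the CREB site, chr11:69099985-69100061, plus strand: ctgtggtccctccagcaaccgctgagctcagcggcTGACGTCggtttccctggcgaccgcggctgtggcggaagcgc
Cry1, E-box, chr10:85185074-85185149, minus strand: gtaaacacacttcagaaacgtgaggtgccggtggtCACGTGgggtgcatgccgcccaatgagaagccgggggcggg
Per3, D-box pair, chr4:151044796-151044890, minus strand: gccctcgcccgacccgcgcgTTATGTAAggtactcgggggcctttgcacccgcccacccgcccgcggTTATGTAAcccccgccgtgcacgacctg
Arntl, RRE core, chr7:113207531-113207557, plus strand: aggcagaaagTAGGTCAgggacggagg

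The Per1 E-box lay at -166 to -161 from its upstream start, and the 7-letter match at -132 to -126 from its downstream start. The Cry1 E-box lay at -60 to -55, and the Per3 D-boxes at -205 to -198 and -158 to -151. The Arntl match lay within the transcribed sequence, at 30 to 36. The E-box was in 7.15% of all 32851 windows, TGACGTC in 3.21%, TTATGTAA in 0.938% and TAGGTCA in 2.61%. Among the other motifs, TGACGTCA was in 1.79% of windows, the CArG box in 1.63%, TGGGTCA in 3.98% and TTACGTAA in 0.119%. A match says that the letters are there and not that a factor binds, and the windows without one say nothing about more distant sites.

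Per1 was the clock gene that differed most between the groups. Per1 (ENSMUSG00000020893), a repressor of the loop, stood at 31.4, 28.9, 28.2 and 25.6 CPM in sham 1 to 4. In ASC 1 to 4 it stood at 54.0, 74.1, 50.1 and 73.1 CPM. Every ASC library was above every sham library, and the lowest ASC value was well above the highest sham value. The means were 28.5 ± 2.37 CPM in sham and 62.8 ± 12.6 CPM in ASC (SD, n = 4 each), a 2.20-fold difference (95% confidence interval 1.79 to 2.70; log2 fold change 1.14, SE 0.14). In edgeR's quasi-likelihood test across all genes Per1 was the 1 of the 10 clock genes past the adjusted p threshold of 0.05, where 1.02% of all 15857 tested genes passed. No inference is drawn from that count. Within ASC, Per1 was higher in ASC 2 and ASC 4 than in ASC 1 and ASC 3. The red cell sum was highest in ASC 1 and ASC 4, the pigment sum in ASC 3 and ASC 4, and the log2 fold change of Per1 was 1.12 without the first of these pairs and 1.17 without the second, the pairs having been chosen after the data were seen.

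**Figure D1:**
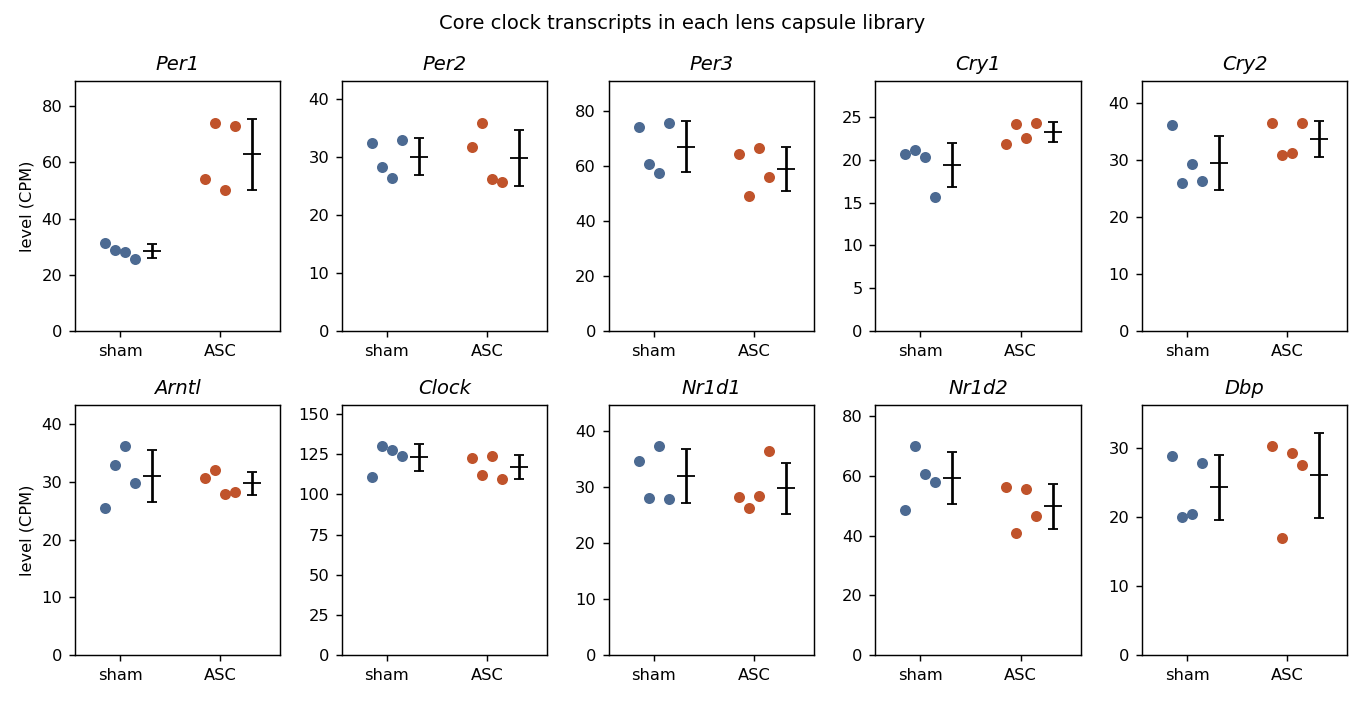
Level of each of the 10 clock genes in CPM (y axis, from 0, own scale per gene) in the 4 sham and 4 ASC libraries (points, replicates 1 to 4 from left to right), with the mean and SD beside them. Per1 lies at 25.6 to 31.4 CPM in sham and 50.1 to 74.1 CPM in ASC; the groups overlap for every other gene but Cry1.

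The paralogues of Per1 overlapped between the groups. Per2, which the loop and CREB also regulate, was at 32.5, 28.3, 26.4 and 33.0 CPM in sham and at 31.6, 35.9, 26.3 and 25.7 CPM in ASC (log2 fold change -0.01, SE 0.13, 95% interval -0.28 to 0.27). Its groups lay over each other, with the highest and the lowest value both in ASC. Per3, a Period gene with strong D-box drive, was at 74.2, 60.9, 57.3 and 75.7 CPM in sham and at 64.4, 48.9, 66.5 and 56.0 CPM in ASC (-0.18, SE 0.12, interval -0.46 to 0.09). Its groups overlapped as well. In the ratio of Per1 to Per2 within a library the scaling cancels. On the log2 scale it was -0.05, 0.03, 0.09 and -0.36 in sham and 0.77, 1.05, 0.93 and 1.51 in ASC, with no overlap. The log2 ratio of Per1 to Per3 was -1.23 ± 0.24 in sham and 0.08 ± 0.49 in ASC, again with no overlap.

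The Cryptochromes, partners of the Period proteins in repression, differed little. Cry1 was at 20.6, 21.1, 20.3 and 15.6 CPM in sham and at 21.9, 24.2, 22.5 and 24.3 CPM in ASC. The groups did not overlap, but the highest sham and the lowest ASC value were close, and sham 4 was well below the rest. The log2 fold change was 0.26 (SE 0.11, interval 0.01 to 0.50), 0.17 without sham 4 and 0.13 with scaling by library totals. Cry2 ranged from 25.9 to 36.1 CPM in sham and from 30.8 to 36.5 CPM in ASC (0.19, SE 0.12, interval -0.07 to 0.46). Without overlap were thus 2 of the 10 genes, Per1 and Cry1, both higher in ASC, against 9.06% of all tested genes in either direction and 3.39% higher in ASC.

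The activators overlapped between the groups. Arntl was at 25.5, 32.9, 36.2 and 29.8 CPM in sham and at 30.7, 32.1, 28.0 and 28.3 CPM in ASC (log2 fold change -0.06, SE 0.11, interval -0.31 to 0.19). All 4 ASC values fell inside the sham range. Clock ranged from 111 to 130 CPM in sham and from 109 to 124 CPM in ASC (-0.07, SE 0.09, interval -0.27 to 0.12). It had the smallest spread of the 10 genes, with a pooled within-group SD of 0.10 on the log2 scale, where the median over all tested genes was 0.23.

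The REV-ERB genes, which repress Arntl, overlapped between groups. Nr1d1 was at 34.6, 28.1, 37.2 and 27.8 CPM in sham and at 28.1, 26.2, 28.3 and 36.4 CPM in ASC (log2 fold change -0.10, SE 0.13, interval -0.39 to 0.18). Nr1d2 was at 48.5, 69.96, 60.6 and 58.1 CPM in sham, and at 56.5, 40.8, 55.8 and 46.6 CPM in ASC. Its log2 fold change of -0.25 (SE 0.13, interval -0.54 to 0.04) was the lowest of the 10, and ASC 2 held its lowest value. In GENCODE M21, 8.55% of the exon bases of Nr1d1 overlap Thra on the other strand and 18% of those of Dbp overlap Sphk2. Whether counting used strand is not given in the labels, so reads of these pairs may be mixed.

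Dbp, the output gene whose transcript swings widely through the day in many tissues, was at 28.8, 20.03, 20.5 and 27.8 CPM in sham and at 30.2, 17.0, 29.3 and 27.6 CPM in ASC (log2 fold change 0.10, SE 0.19, interval -0.33 to 0.53); the sign of this value changed with the scaling. It was the most variable of the 10 within groups, with a pooled SD of 0.34 on the log2 scale. Sham 2, sham 3 and ASC 2 were low, and the other 5 libraries lay close together above them. The log2 ratio of Dbp to Arntl, which tracks the phase of the loop, was -0.36 ± 0.48 in sham and -0.23 ± 0.46 in ASC (SD, n = 4 each). For Nr1d1 over Arntl it was 0.04 ± 0.29 and -0.01 ± 0.28, and for Per3 over Arntl 1.11 ± 0.40 and 0.98 ± 0.27. Each of these 3 ratios differed between groups by less than the SD within either. For Nr1d2 over Arntl the values were 0.93 ± 0.14 and 0.73 ± 0.28, a difference of -0.20 that exceeded the SD in sham and not that in ASC, with overlapping groups.

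Together the 9 genes other than Per1 had log2 fold changes from -0.25 to 0.26 with a median of -0.06, beside a median of 0.01 over all tested genes, and 3 of the 9 were positive. Their 95% intervals ran at the widest from 0.689-fold to 1.44-fold, so smaller shifts of level than these are not resolved here. These intervals set no limit on a shift of phase, since the hour of collection is not given. The log2 fold change of Per1 was larger than that of each of the 9, by 0.88 (Cry1) to 1.39 (Nr1d2).

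**Figure D2:**
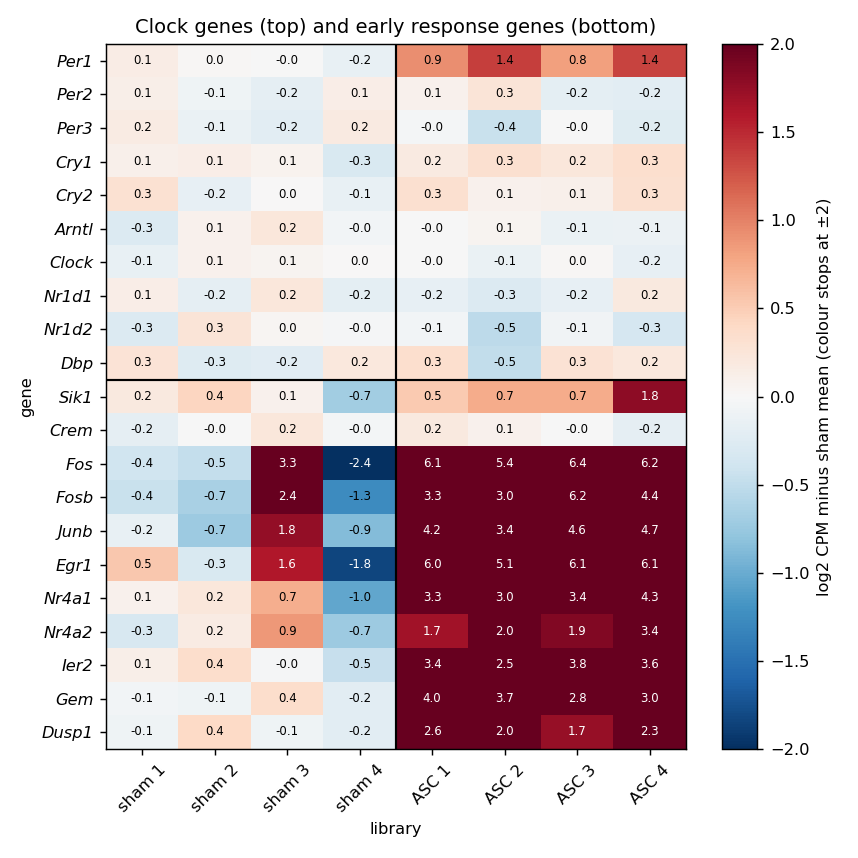
Log2 CPM minus the sham mean (colour and printed value) for the 10 clock genes above the line and 11 early response genes below it, in the 8 libraries. Per1 is 0.8 to 1.4 above the sham mean in ASC, the others reach at most -0.52 (Nr1d2 in ASC 2), and most early response genes are far higher in ASC.

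Levels were set beside each other per kb of exon, from the union of all GENCODE M21 exons of each gene. The order of the genes rests on these annotated lengths. In sham, Nr1d2 was first at 10.96 ± 1.63 CPM per kb, followed by Nr1d1, Clock, Dbp, Per3, Cry1, Per2, Per1 and Cry2, with Arntl last at 4.13 ± 0.61. In all 9 pairs of neighbours in that order the sham ranges overlapped, so neighbours did not differ beyond their spread. Per1 stood eighth in sham at 5.06 ± 0.42 CPM per kb and level with Per2 at 5.13 ± 0.54. In ASC it had the highest mean of the 10, 11.2 ± 2.23, above Nr1d1 at 9.68 ± 1.48 with overlapping ranges.

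**Figure D3:**
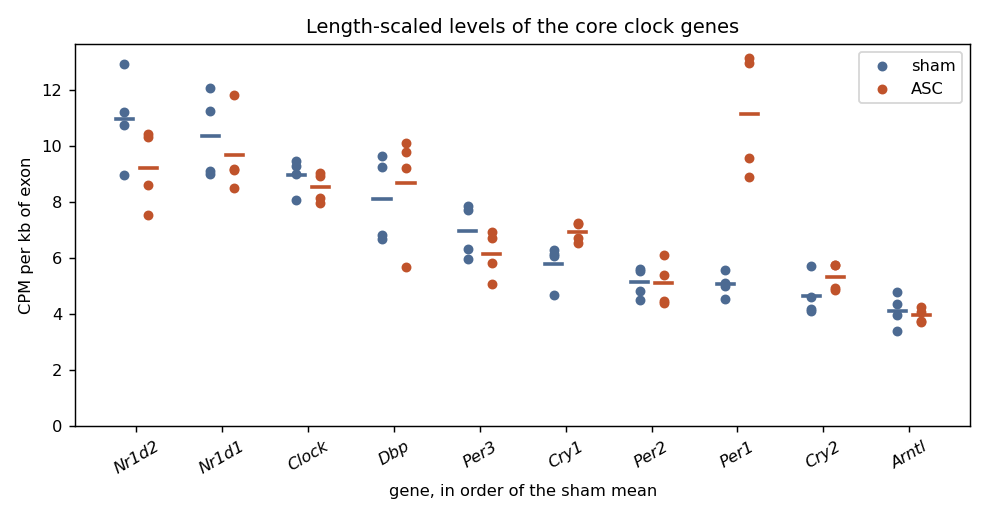
Level per kb of exon (y axis, from 0) of the 10 clock genes, ordered by the sham mean, in each sham and ASC library (points) with the group mean (line). Per1 moves from the eighth place in sham, 5.06 CPM per kb, to the first in ASC, 11.2 CPM per kb. Its ASC range overlaps that of Nr1d1.

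Other genes of the clock system showed 1 rise and 0 falls among 30 tested (7 at an unadjusted p under 0.05), where 0.631% of all tested genes rose and 0.391% fell. Their median log2 fold change was 0.08. The gene that rose was Bhlhe40, also called Dec1, a transcriptional repressor that competes with CLOCK and BMAL1 for E-boxes and that stress and hypoxia also induce. It was at 36.1, 30.1, 53.1 and 24.8 CPM in sham and at 97.4, 74.8, 112.8 and 103.7 CPM in ASC, with no overlap (edgeR, log2 fold change 1.43, SE 0.23, adjusted p = 0.0327). Its relative Bhlhe41, or Dec2, was at 21.9 ± 0.96 and 22.4 ± 2.68 CPM (0.03, adjusted p = 0.919). The call of Bhlhe40 held without sham 3 or ASC 2 and was lost when any 1 of the other 6 libraries was left out (adjusted p up to 0.109), without either pair of ASC libraries named above (up to 0.27), and with scaling by library totals (adjusted p = 0.063). Its log2 fold change was 1.25 to 1.67 over the 19 alternatives.

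Among 10 further genes of the loop outside the core, most of them transcription factors, 9 had a positive log2 fold change, where 8146 of the 15857 tested genes did. The following were named after their values were seen. Rora, which activates Arntl at the RRE sites that REV-ERB proteins repress, was at 71.8 ± 4.14 and 83.6 ± 3.62 CPM (0.22, edgeR adjusted p = 0.244). Its groups did not overlap, and it did not pass adjustment. Nfil3, which represses D-box genes in opposition to DBP, was at 11.3 ± 3.41 and 17.7 ± 2.84 CPM (0.65, adjusted p = 0.184). Scaling by library totals moved the median over all tested genes from 0.01 to -0.116 (log2), and small positive values such as that of Rora sit near that shift.

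The PAR bZIP relatives of Dbp did not pass. Tef averaged 215 ± 15.2 CPM in the sham and 194 ± 11.8 CPM in the ASC libraries (log2 fold change -0.15, edgeR adjusted p = 0.501) and Hlf at 99.9 ± 13.6 and 100.5 ± 14.4 CPM (0.01, adjusted p = 0.986). DESeq2 and limma-voom called 0 of this pair, and 0 were at an unadjusted p under 0.05. Of 8 genes for the turnover of clock proteins 0 passed by any of the 3 tools (0 at an unadjusted p under 0.05). Csnk1d, a kinase that marks Period proteins for degradation, was at 99.9 ± 7.604 and 94.5 ± 8.46 CPM (-0.08, edgeR adjusted p = 0.748).

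Of 10 genes that are rhythmic in many tissues 0 were called by edgeR (2 had an unadjusted p under 0.05), limma-voom called 0, and DESeq2 called 2, Rbm3 and Klf10. Rbm3, a cold-inducible RNA-binding protein that follows the daily body temperature rhythm, averaged 93.0 ± 2.69 CPM in the sham libraries and 72.2 ± 8.002 CPM in ASC, with no overlap (log2 fold change -0.36, SE 0.09, edgeR adjusted p = 0.0908). Its relative Cirbp was at 78.5 ± 28.2 and 83.7 ± 10.4 CPM (0.09, adjusted p = 0.897); its sign turned without sham 2 (-0.06) and with scaling by library totals (-0.01), so no direction is given. Klf10, named after its values were seen, is a TGF-beta inducible factor that is also clock-controlled; it was at 10.9 ± 1.27 and 19.0 ± 5.80 CPM (0.80, adjusted p = 0.0714).

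**Figure D4:**
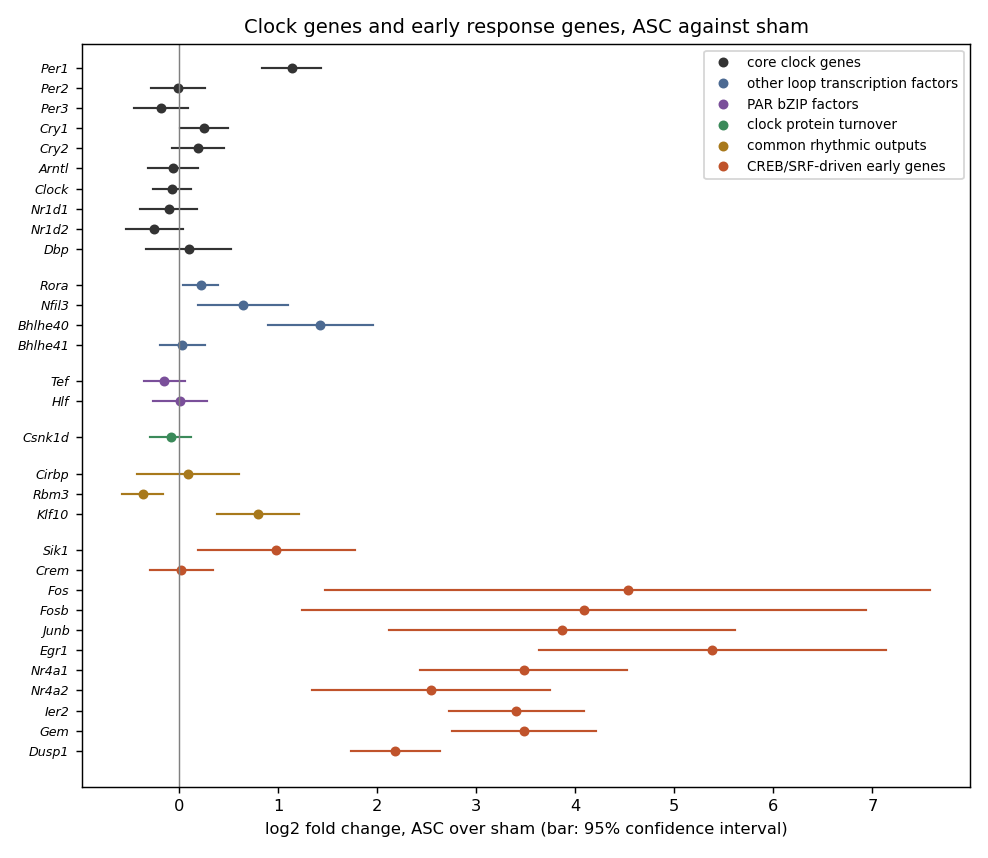
Log2 fold change of ASC over sham (x axis, points) with its 95% confidence interval (bars) for the 10 core clock genes, the 10 other clock genes named in the text and 11 early response genes. Per1 at 1.14 and Bhlhe40 at 1.43 have the highest values of the clock genes shown, and most early response genes lie at 2 or more.

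Per1 was set beside early response genes driven by CREB or SRF, a list known from earlier results to be higher in ASC, so its direction is not independent evidence. Of 11 such genes 5 rose and 0 fell in edgeR's test, where 0.631% of all tested genes rose and 0.391% fell. Their median log2 fold change was 3.48. Egr1, a zinc finger transcription factor, averaged 8.22 ± 7.11 CPM in the sham and 349 ± 97.6 CPM in the ASC libraries (5.38, SE 0.73, adjusted p = 0.0327). Gem, a small GTPase (3.48, adjusted p = 0.00231), the orphan nuclear receptor Nr4a1 (3.48, adjusted p = 0.022) and Ier2 (3.40, adjusted p = 0.0021) rose by about the list median. The fifth was Dusp1, a MAP kinase phosphatase (2.19, adjusted p = 0.000903), named after its values were seen. DESeq2 called 10 of the 11 and limma-voom 7. Each of the 5 had a higher log2 fold change than Per1, a difference that was not tested. The count was 3 without sham 1, sham 2, ASC 1 or ASC 3 and 8 without sham 3. Leaving out sham 1, sham 2, ASC 1 or ASC 3 ended the call of Nr4a1 (adjusted p up to 0.0878). Leaving out any of these or ASC 4 ended that of Egr1 (adjusted p up to 0.107), and so did either pair of ASC libraries for both genes (up to 0.23).

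Set library by library, the order of Per1 matched that of the early response genes in some places and not in others. Sham 4 was the lowest sham library for Per1 and for 10 of the 11 early response genes. ASC 3, the lowest ASC library for Per1, was the lowest for 2 of them, Gem and Dusp1. ASC 2, the highest for Per1, was the lowest for 6. Fos, named after its values were seen, stood at 50.4 CPM in sham 3 and at 0.819 to 3.74 CPM in the other sham libraries, while Per1 in sham 3, at 28.2 CPM, was inside the sham range. In ASC 2, Egr1 at 204 CPM and Ier2 at 29.4 CPM were the lowest of the ASC libraries, and Per1 at 74.1 CPM was the highest. The log2 fold changes of the 11 ran from 0.02 to 5.38, and Nr4a1, Nr4a2 (2.55, edgeR adjusted p = 0.0543) and Fos (4.53, adjusted p = 0.19) are CREB targets well above Per1 on that scale. The lowest were Crem and Sik1, also CREB targets, named with Nr4a2 after their values were seen. Sik1 was at 12.8 ± 3.82 and 25.4 ± 11.7 CPM (0.98, edgeR adjusted p = 0.25) and Crem at 9.04 ± 1.11 and 9.19 ± 0.99 CPM (0.02, adjusted p = 0.958). The Sik1 mean in ASC leaned on ASC 4, at 42.8 CPM. ASC 1 to 3 were at 17.7, 20.6 and 20.5 CPM, and the highest sham library was at 16.6 CPM.

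Genes that glucocorticoids induce were set beside Per1, which glucocorticoids also induce. Whether glucocorticoids had a part in the Per1 values was not tested. Klf9, Pdk4 and Tsc22d3 are also among the 10 genes above that are rhythmic in many tissues. Of 8 tested, edgeR called 0 (2 had an unadjusted p under 0.05), limma-voom 0 and DESeq2 2, Sgk1 and Mt1. Mt2 had too few reads to be tested. Sgk1, a kinase of ion transport, averaged 95.6 ± 39.9 CPM in sham libraries and 168 ± 35.7 CPM in ASC libraries (log2 fold change 0.81, SE 0.31, edgeR adjusted p = 0.291). The metallothionein Mt1 averaged 13.0 ± 4.05 and 45.8 ± 22.2 CPM (1.81, SE 0.47, edgeR adjusted p = 0.151). Its groups did not overlap, as for 9.06% of all tested genes, and edgeR called it only without ASC 1 (adjusted p = 0.0288). The other 6, named after their values were seen, were Klf9 (0.48), Pdk4 (0.29), Zbtb16 (0.28), Tsc22d3 (-0.08), Errfi1 (-0.10) and Fkbp5 (-0.30), each with an edgeR adjusted p of 0.414 or more. The median of the 8 was 0.28, and 5 were positive.

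Variation between libraries of the same group is independent of how the genes were chosen, and it was tested for all 45 pairs of clock genes after each group's mean was taken off. Dbp and Per3 moved together over the 8 libraries (Pearson r = 0.917, exact permutation p = 0.0139; Spearman rho = 0.786, exact permutation p = 0.0503; r = 0.849 without the 2 libraries farthest from the median of Per3). Clock and Nr1d2 did so too (r = 0.908, exact permutation p = 0.0174; rho = 0.905, p = 0.0243; r = 0.97 without the 2 farthest libraries). Arntl ran opposite to Dbp (r = -0.705, exact permutation p = 0.0295; rho = -0.714, p = 0.0903; r = -0.771 without the 2 farthest). Per1 and Cry1 moved together more weakly (r = 0.598, exact permutation p = 0.0451; rho = 0.5, p = 0.0486; r = 0.687 without the 2 farthest). With 45 pairs, these 4 had an unadjusted p under 0.05 and 0 passed adjustment (adjusted p = 0.391, 0.391, 0.443 and 0.508 in the order named). The smallest p that the 576 permutations within groups allow is 0.00174. The libraries low in Dbp and Per3 were sham 2, sham 3 and ASC 2. These had TMM factors of 1.09, 1.15 and 1.06 and lens fibre sums of 6516, 11451 and 12923 CPM, while sham 4, ASC 1 and ASC 3 had factors of 0.934, 0.864 and 0.908 and fibre sums of 20545, 57231 and 36316 CPM. Sham 1, with Dbp and Per3 both high, had a factor of 1.01 and a fibre sum of 11517 CPM, close to that of sham 3, and ASC 4 had 1.01 and 39194 CPM. The part of tissue makeup in this pattern was not tested.

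**Figure D5:**
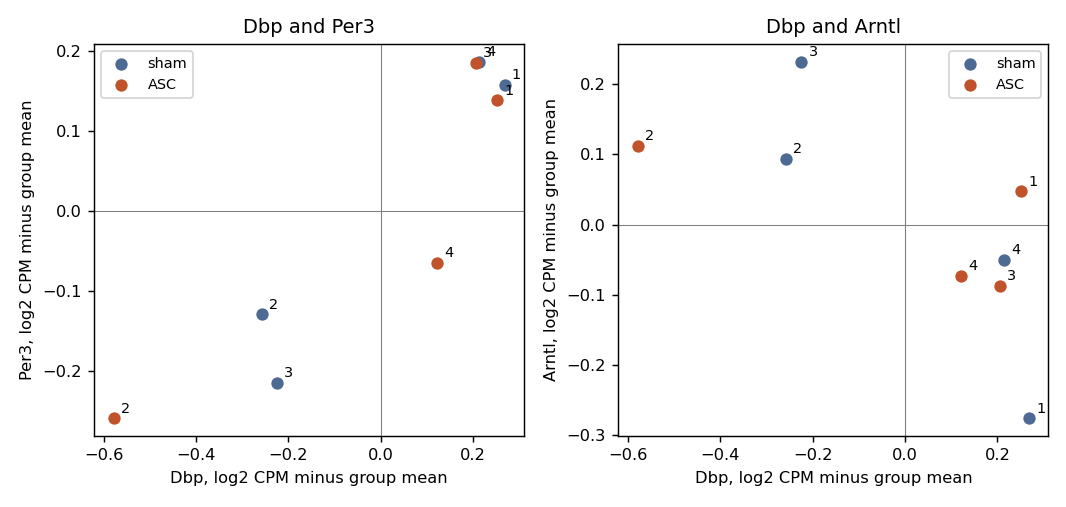
Log2 CPM minus the group mean of Per3 (left) and Arntl (right) against that of Dbp, 1 point per library, numbered by replicate. Per3 runs with Dbp (r = 0.917) and Arntl against it (r = -0.705); neither pair passed adjustment over the 45 pairs.

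Pearson correlation within groups was also taken with 9174 genes over the 8 libraries, here with a prior count in log2 CPM. The 5 genes most like Per1 were Prkcsh (r = 0.976), Ppp5c (0.972), Exoc8 (0.964), Tbc1d1 (0.955) and Mast3 (0.955). None of the 5 passed the threshold in ASC against sham by edgeR (adjusted p of 0.0663 or more). The 5 most like Dbp were Prpf31 (0.989), Osbpl9 (0.982), Gtf2h3 (0.978), Nol3 (0.972) and Dctn6 (0.97). These are the top of a long ranking, given without a test, and no gene of the clock lists was among them.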

How the data were processed

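The authors deposited 1 table of raw read counts per gene, whole numbers for 8 libraries, and all count columns were used. CASAVA, fastp, HISAT2 2.0.5 and featureCounts 1.5.0-p3 had been run, per the submitters' processing notes. Genome build, annotation and strand setting were not given in the sources used here. Symbols were matched by Ensembl identifier for all but 123 rows.

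Genes were kept by filterByExpr (15857 of 54532), scaled by TMM and tested across all genes with edgeR 4.0.16 (R 4.3.3), with its robust quasi-likelihood test and no covariate. P-values were adjusted by Benjamini-Hochberg over all tested genes, with a threshold of 0.05. The SE is the log2 fold change divided by the square root of F. Levels are CPM; a prior count of 2 entered log2 CPM. Marker sums had two-sided exact permutation tests, adjusted over 7 lists. Pairs of clock genes had two-sided exact permutation tests within groups. Alternatives were DESeq2 1.42.0, limma-voom (limma 3.58.1), other scalings and filters, a replicate block, libraries left out, and a threshold of 0.01.

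The clock genes and lists were chosen with earlier results of these data known. Named were all 10 clock genes and, per list, the 4 or fewer called genes that changed most, given a mean log2 CPM of 1 or more; where none was called, the 2 most abundant. A gene that this rule names is not reported here. The genes most like Per1 and Dbp needed a mean log2 CPM of 3, and model names and pseudogenes were left out. No libraries agreed within counting noise (chi-square per degree of freedom 26.7 or more in every pair). The fit was tested on simulated data. It called 34% of 1.5-fold, 54% of 2-fold and 88% of 4-fold changes, and 7.26% of its calls were false. Counts are reads and not molecules.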

Additional observations from a re-analysis of the deposited data

Results flagged for a closer look

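In 3 of 60 groups of 4 libraries a single library stood far from the other 3 by Dixon's criterion, which chance meets in about 1 of 20 groups. The 60 covered the genes that the naming rule picks and the marker sums. Genes named after their values were seen were outside the 60, so the 3 are not a count over all genes in the text. Cry1 was at 15.6 CPM in sham 4, with the nearest sham library at 20.3 CPM. Egr1 was at 204 CPM in ASC 2, with the nearest ASC library at 379 CPM. The summed leukocyte level was 13.3 CPM in ASC 1, with the nearest ASC library at 38.8 CPM. Outside the 60 groups the criterion was not applied, but single libraries stood apart there too. Fos was at 50.4 CPM in sham 3 and at 0.819 to 3.74 CPM in the other sham libraries. Sik1 was at 42.8 CPM in ASC 4 and at 17.7 to 20.6 CPM in the other ASC libraries.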

How the results depend on the processing

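As a description, since the clock genes were chosen with these values known, the count of clock genes past the threshold was 1 in all 20 alternatives, and the log2 fold change of Per1 was 1.03 to 1.23 over 19. Scaling by library totals moved the split of calls over all genes from 100 higher and 62 lower to 75 and 70. All genes called numbered 162, with 572 in DESeq2, 712 without a low-count filter, 44 at the 0.01 threshold, 42 without ASC 1 and ASC 4, 38 without ASC 3 and ASC 4, and 56 to 228 with 1 library left out. Other clock genes called numbered 1, with 3 in DESeq2, 4 without a filter, 2 with the replicate block, 0 with library totals, at 0.01 and without either ASC pair, and 0 to 2 with 1 library left out. Early response genes called numbered 5, with 10 in DESeq2, 3 at 0.01 and without either ASC pair, and 3 to 8 with 1 library left out. The cause of these shifts was not tested, beyond fewer libraries where some were left out. Both leave-outs of an ASC pair were added after the data were seen. Whether the replicate number pairs libraries is not settled here. Deviations of same-numbered libraries correlated at 0.217, 0.0573, 0.214 and -0.0897. Sham 1 and sham 3 were closest to the ASC library of their own number, and sham 2 and sham 4 were not. With the number as a block 169 genes were called, and Per1 was at 1.12. Egr1 and Nr4a1 were then no longer called (edgeR adjusted p = 0.0726 and 0.0913), while Bhlhe40 stayed called (edgeR adjusted p = 0.00253). Depth of 14420494 to 21141582 counts left the clock genes with 210 or more reads per library, and shifts smaller than their intervals were not detectable at this depth and number of libraries.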
